A study of Mus musculus with 24 samples.

Results

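The 10 secreted inflammatory mediators described here are expressed by immune cells of the mouse brain, and were measured in 2 regions and 3 stages of motor learning. They are the CC chemokines Ccl2, Ccl3, Ccl4, Ccl5, Ccl7 and Ccl12, the CXC chemokine Cxcl10, and the cytokines Tnf, Il1a and Il1b, which are 10 of the 54235 features in the count matrices. The genes were taken by symbol, and each symbol matched 1 feature. They were chosen by measured values in part: Tnf and Ccl3 for their place among the leading genes of a cluster of microglia in these cells, and Ccl5 for its difference between late and control striatal microglia. Those 2 patterns are therefore given as descriptions, without a test. Single-cell 3' RNA libraries came from primary motor cortex of Fos-CreER::Ai9 mice and from dorsal striatum of Arc-CreER::Ai9 mice, in which 4-hydroxytamoxifen (4-OHT) switches on a tdTomato reporter in neurons active at that time. All mice received 4-OHT. Early mice had 2 days and late mice 8 days of training on reaching with a forelimb, and control mice had no training. Each pool held tissue of 2 mice, marked as 1 male and 1 female, with the hemispheres kept as separate libraries, and there were 2 pools for each region and stage. Ages were not given in the sources used here. Each region came with its own driver line, so a difference between regions and one between lines cannot be told apart.

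Chemokines are small secreted proteins that bind G protein-coupled receptors on leukocytes and direct their migration. Ccl2, Ccl7 and Ccl12 act on Ccr2 and call in monocytes. Ccl3, Ccl4 and Ccl5 attract monocytes and T cells, and Cxcl10 binds Cxcr3 on activated T cells and natural killer (NK) cells. Tnf and the interleukin-1 pair Il1a and Il1b are alarm cytokines that activate the transcription factor NF-kappaB in the cells that receive them, and NF-kappaB in turn drives transcription of many chemokine genes. Microglia are the resident macrophages of brain tissue, and perivascular macrophages lie along its blood vessels. Both are known to switch on immediate early, cytokine and chemokine genes when tissue is cut and digested with enzymes in the warm, which is how these cells were obtained. Levels in these cells therefore cannot be told apart from levels set during slicing and papain digestion.

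In the GRCm38 annotation all 10 genes were protein-coding, and the 6 CC chemokine genes lay close together on chromosome 11. Ccl2 (82035571 to 82037453), Ccl7 (82045712 to 82047525) and Ccl12 (82101845 to 82103400) followed each other on the plus strand. Ccl5 (83525778 to 83530518) and Ccl3 (83647844 to 83649355) lay on the minus strand and Ccl4 (83662584 to 83664683) on the plus strand. Cxcl10 was on chromosome 5 (92346638 to 92348889), Tnf on chromosome 17 (35199381 to 35202007), and Il1a (129299610 to 129309972) and Il1b (129364570 to 129371139) on chromosome 2, these 4 on the minus strand. RefSeq promoter sequences (GRCm38.p6) matched 6 of the 10 genes, namely Ccl3, Ccl12, Cxcl10, Tnf, Il1a and Il1b. The other 4 are Ccl2, Ccl4, Ccl5 and Ccl7. The 250 bases before the transcription start are printed for 3 genes to set the proximal sequence of Cxcl10, of the 9 genes tested between regions in perivascular macrophages the one with the highest log2 difference, beside those of Ccl3 and Tnf. Capitals mark matches, on either strand, to the NF-kappaB motif (kappaB), the interferon response motif (GAAA, any 2 bases, GAAA), the AP-1 motif TGANTCA and the TATA box TATAAA.
Cxcl10 (chr5:92348890-92349139, minus strand): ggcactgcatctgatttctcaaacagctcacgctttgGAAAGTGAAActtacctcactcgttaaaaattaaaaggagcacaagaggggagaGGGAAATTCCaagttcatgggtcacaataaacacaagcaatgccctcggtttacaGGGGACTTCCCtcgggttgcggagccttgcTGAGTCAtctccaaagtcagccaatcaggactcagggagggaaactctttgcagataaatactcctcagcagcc
Ccl3 (chr11:83649379-83649628, minus strand): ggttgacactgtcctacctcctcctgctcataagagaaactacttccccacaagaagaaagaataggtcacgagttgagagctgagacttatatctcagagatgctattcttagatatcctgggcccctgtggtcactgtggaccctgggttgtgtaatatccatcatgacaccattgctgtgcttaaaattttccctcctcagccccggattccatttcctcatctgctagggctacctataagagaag
Tnf (chr17:35202008-35202257, minus strand): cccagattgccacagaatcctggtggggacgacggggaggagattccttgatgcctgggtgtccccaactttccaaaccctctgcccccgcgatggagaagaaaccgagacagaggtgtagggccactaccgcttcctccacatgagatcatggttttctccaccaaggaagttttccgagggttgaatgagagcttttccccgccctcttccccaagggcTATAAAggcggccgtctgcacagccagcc

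The Cxcl10 window held kappaB matches starting 159, 104 and 103 bases before the start, the last 2 of which overlap, an interferon response match at 213 bases and a TGANTCA match at 74 bases. The Tnf window held 1 TATAAA match at 29 bases, and the Ccl3 window held none of the 4 motifs. Ccl12, Il1b and Il1a held TATAAA at 31, 31 and 32 bases, and Il1a also TGANTCA at 12 bases. Among 32851 promoter windows of this length, 7.25% held a kappaB match, 2.98% the interferon response motif, 6.75% TGANTCA and 12.4% TATAAA. A match describes these letters only.

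Matrices were read for 23 of 24 libraries. Control replicate 1 of dorsal striatum rests on its left library alone, since its right one was not analysed here. Libraries held between 5260446 and 30470621 unique molecular identifiers (UMIs), and 98612 cells were used. Motor cortex control replicate 1 went against its label: 0.107% of its cells had an Xist UMI, against 29.2% to 48.5% in the other 11 pools, so the female cells that the label names were nearly absent. Shared cell barcodes split the pools into 2 classes, with 1895 barcodes shared within class A, 665 within class B and 112 between them. These were taken as the kit versions and are called kit classes here, though the labels do not say which library had which kit. Control replicate 1 and late replicate 1 of each region were class A and the other 8 pools class B, so no early pool was class A. Per the labels, control replicate 1 and late replicate 1 of a region also shared a flow cell, so within a region class A and that flow cell cannot be told apart. Control replicate 2 and early replicate 1 of a region shared another. Early replicate 2 of both regions shared one, and so did late replicate 2 of both.

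Clusters named from markers gave 14877 microglia-like cells (4843 in dorsal striatum, with 540 to 1035 per pool, and 10034 in motor cortex, with 876 to 4191 per pool). The median was 1826 UMIs per cell in striatum and 1820 in motor cortex. There were 832 perivascular macrophage-like cells, 248 in striatum (30 to 58 per pool) and 584 in motor cortex (67 to 184 per pool). The markers held: P2ry12, a purinergic receptor gene used to mark microglia, had a UMI in 84.5% and 86.3% of the microglia-like cells of striatum and motor cortex. The scavenger receptor gene Mrc1 had one in 92.3% and 96.6% of perivascular macrophage-like cells and in 1.86% and 3.27% of microglia-like cells. The 10 members were left out of the genes used for clustering.

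Microglia held most of the UMIs of 8 of the 10 genes in both regions. They carried 92.6% of the Ccl3 UMIs in striatum and 90.5% in motor cortex, 93.4% and 90.5% of those of Ccl4, 93.8% and 93.6% of those of Tnf, and 91.5% and 92.4% of those of Il1a. Il1b and Ccl12 were shared with perivascular macrophages, which held 20.5% and 18.9% of the Il1b UMIs and 25.3% and 29.2% of the Ccl12 UMIs. Ccl7 was carried mainly by perivascular macrophages, with 77.4% of its UMIs in striatum and 81.6% in motor cortex, against 11.1% and 12.7% in microglia. Ccl2, which encodes the chief monocyte chemoattractant, was divided: microglia held 53.8% and perivascular macrophages 35.9% in striatum, and 31.5% and 59.9% in motor cortex. These shares count UMIs and so move with the number of cells of each type recovered.

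**Figure D1:**
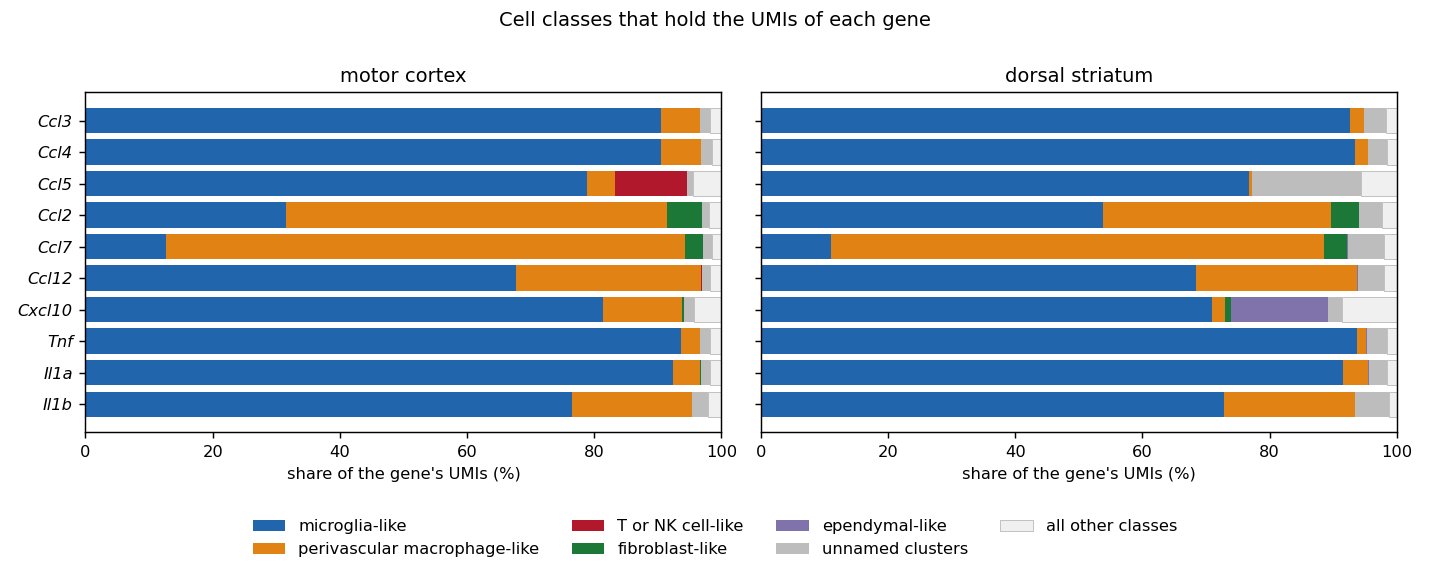
Share of each gene's UMIs (horizontal axis, %) held by each cell class in motor cortex (left) and dorsal striatum (right). Microglia (blue) hold 90.5% or more of the UMIs of Ccl3, Ccl4, Tnf and Il1a in both regions, perivascular macrophages (orange) hold 77.4% and 81.6% of those of Ccl7, and striatal ependymal cells (purple) hold 15.1% of those of Cxcl10.

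Outside these 2 macrophage types, members were also carried by fibroblast-like and ependymal-like cells, and Ccl5 by T or NK cell-like cells. Fibroblast-like cells, which surround vessels and form the meninges, had a Ccl2 UMI in 85 of 278 cells in striatum and 136 of 301 in motor cortex, with Ccl2 levels of 965 and 2827 CPM (UMIs of a gene scaled to a common total of 1e6 UMIs). They held 4.31% and 5.53% of all Ccl2 UMIs and 3.68% and 2.80% of those of Ccl7. Ependymal-like cells, the ciliated lining of the ventricle, were found in striatum and held 15.1% of its Cxcl10 UMIs. A Cxcl10 UMI was present in 202 of 956 ependymal-like cells, and their Cxcl10 level lay between 68.6 and 317 CPM over the 6 pools. In neurons, which serve as the measure of free RNA, Ccl3 was detected in 1.40% of cells in striatum and 1.17% in motor cortex after each cell was thinned to 1000 UMIs, and Ccl4 in 1.20% and 1.18%. The other 8 genes each had a UMI in at most 0.38% of the thinned neurons. Before thinning, neurons had a median of 3391 UMIs in striatum and 7148 in motor cortex.

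In microglia, the median share of cells with a UMI over the 12 pools, all cells thinned to 1000 UMIs, was 88.3% for Ccl3, 86.7% for Ccl4, 76.3% for Il1a and 51.1% for Tnf. It was 34.8% for Ccl12, 29.1% for Il1b, 25.8% for Ccl2, 13.8% for Cxcl10, 5.60% for Ccl7 and 2.66% for Ccl5. Every one of these medians was above the share in neurons. Between 56.8% and 94.8% of the thinned microglia of a pool had UMIs of 3 or more of the 10 genes, and between 23.1% and 61.0% of 5 or more. The lowest values of both were those of dorsal striatum early replicate 1.

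Levels per pool are CPM over the cells of the class, in the order control replicates 1 and 2, early 1 and 2, late 1 and 2. Because 1 UMI stands for 1 transcript end, the CPM are not corrected for length and are compared within a gene only. Ccl3, a Ccr1 ligand, stood at 7763, 11800, 5622, 11990, 14900 and 10560 CPM in striatal microglia and at 7479, 11350, 6400, 14880, 8860 and 6995 CPM in those of motor cortex. Its neighbour Ccl4, which attracts monocytes and T cells, stood at 7734, 12570, 5484, 13440, 16270 and 11660 CPM in striatum and at 10560, 9284, 6440, 19850, 9808 and 7933 CPM in motor cortex. In both genes and both regions, early replicate 1 was the lowest pool and early replicate 2 lay more than 2 times above it. The 2 early pools of a region were of 1 kit class but of different flow cells, and the stages overlapped. Within a flow cell, early replicate 1 lay below control replicate 2 for both genes in both regions.

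Tnf, the cytokine that gives the tumour necrosis factor family its name, ranged from 1042 to 2215 CPM in striatum (median 1352) and from 829.2 to 3455 CPM in motor cortex (median 1120). Il1a, which is released by damaged cells, ranged from 1389 to 3038 CPM (median 2486) and from 2053 to 3869 CPM (median 2533). Il1b, which is made as a precursor and cut by the inflammasome, ranged from 351 to 842 CPM (median 562) and from 728 to 1532 CPM (median 896). The highest pool of motor cortex was early replicate 2 for all 3 cytokines. In striatum it was late replicate 2 for Tnf and late replicate 1 for Il1a and Il1b.

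The Ccr2 ligands varied widely between pools of a stage. Ccl2 stood at 595, 1231, 536, 1162, 1257 and 375 CPM in striatal microglia and at 723, 618, 708, 784, 357 and 472 CPM in those of motor cortex, where both late pools were the lowest. Ccl12, which encodes another Ccr2 ligand, ranged from 420 to 1403 CPM in striatum and from 399 to 1214 CPM in motor cortex. Ccl7 stood at 71.9, 76.0, 102, 96.5, 235 and 66.6 CPM in striatum and at 260, 255, 163, 307, 193 and 88.2 CPM in motor cortex. Few cells set the microglial level of Ccl7, since the top 1% of microglia by Ccl7 UMIs held between 27.8% and 64.3% of the pool's Ccl7 UMIs. For Ccl3 the corresponding range was 5.15% to 9.41%. Cxcl10 ranged from 186 to 501 CPM in striatum and from 250 to 1189 CPM in motor cortex, where early replicate 2 was highest and the next pool stood at 437 CPM.

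**Figure D2:**
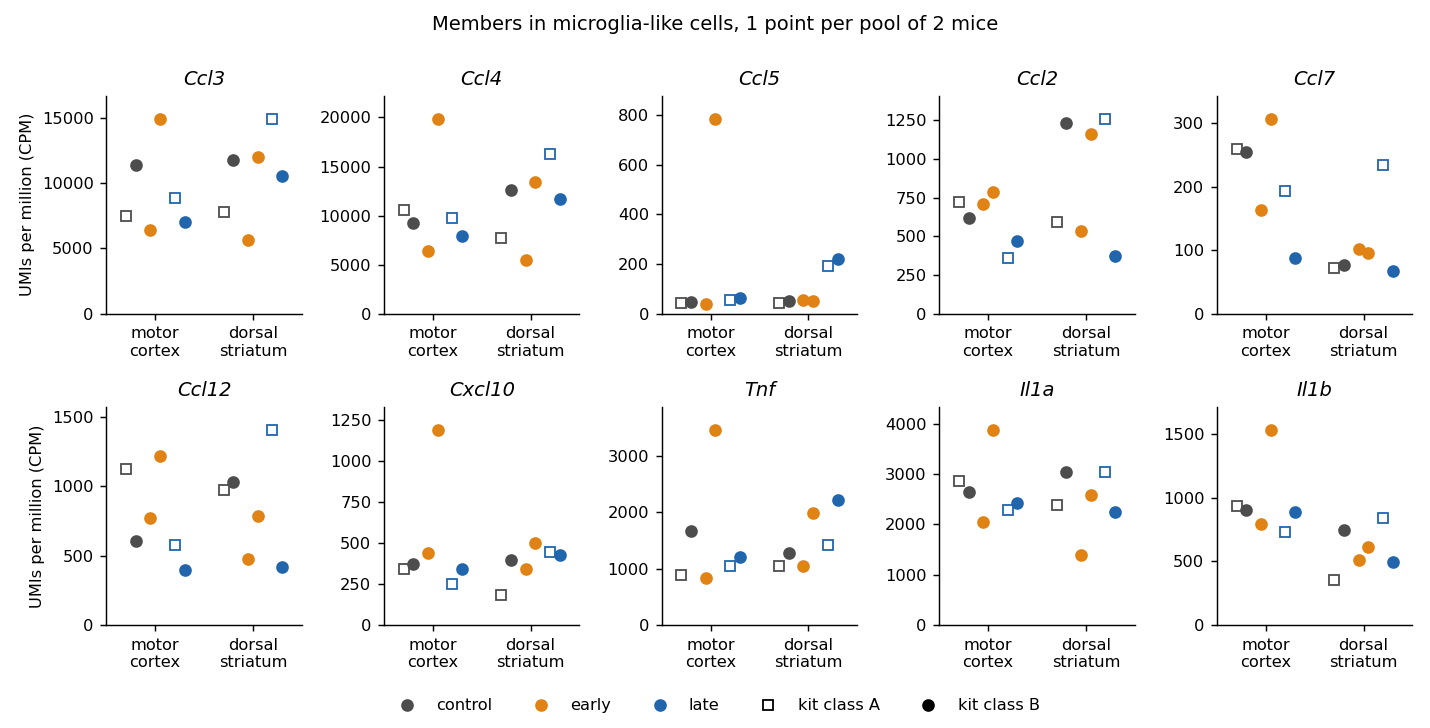
Level of each gene in microglia-like cells (vertical axes, CPM, each from 0), with 1 point per pool of 2 mice coloured by stage and open squares for kit class A. Motor cortex early replicate 2 was the highest of the 6 cortical pools for all 10 genes, among them Ccl5 at 784 CPM, Cxcl10 at 1189 CPM and Il1b at 1532 CPM.

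Detection of one member in a cell went with detection of certain others. The measure was the phi coefficient, the correlation of presence and absence over the thinned cells of a pool, given as the median over 12 pools for each of the 45 pairs. It carries no p because cells are not replicates, and all points share library depth. In microglia the neighbours Ccl3 and Ccl4 had the highest median phi, 0.296 (range 0.071 to 0.417), followed by Ccl2 and Ccl7 with 0.194 (0.108 to 0.352) and the interleukins Il1a and Il1b with 0.167 (0.093 to 0.259). Ccl3 and Tnf reached 0.151 (0.064 to 0.314), Ccl12 and Il1a 0.121, Ccl2 and Ccl12 0.118, and Ccl2 and Il1a 0.110. At this depth the 3 leading pairs were each made of genes on the same chromosome. Cells with both Ccl2 and Ccl7 were 2.37 times as frequent as the product of the single shares (median, range 1.38 to 2.96), while Ccl3 and Ccl4, present in most cells, gave a ratio of 1.04. Over the 12 pools, 7.03% to 30.0% of microglia with a Ccl2 UMI also had a Ccl7 UMI, against 2.54% to 8.10% of those without, and the share was higher with Ccl2 in every pool.

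Perivascular macrophages, also thinned to 1000 UMIs, had the same 3 leading pairs in another order. The median phi was 0.448 for Ccl2 and Ccl7, 0.312 for Il1a and Il1b and 0.263 for Ccl3 and Ccl4. Ccl2 was also paired with Ccl3 (0.247), Ccl12 (0.242) and Ccl4 (0.229), and Ccl7 with Il1a (0.224). With 30 to 184 cells per pool these values spread widely, from -0.062 to 0.756 for Ccl2 and Ccl7. The order of the pairs depended on the depth and the filter on cells. With microglia thinned to 2000 UMIs, over the 11 pools and 6026 cells deep enough, phi was 0.327 for Ccl3 and Ccl4 and 0.256 for Ccl2 and Ccl7. Il1a and Il1b were at 0.128 there, behind Ccl2 and Ccl12 (0.182), Ccl3 and Tnf (0.177) and Ccl4 and Tnf (0.138). Under a stricter filter on cells, phi was 0.358 for Ccl3 and Ccl4, 0.20 for Ccl3 and Tnf, 0.198 for Ccl2 and Ccl7 and 0.159 for Il1a and Il1b.

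**Figure D3:**
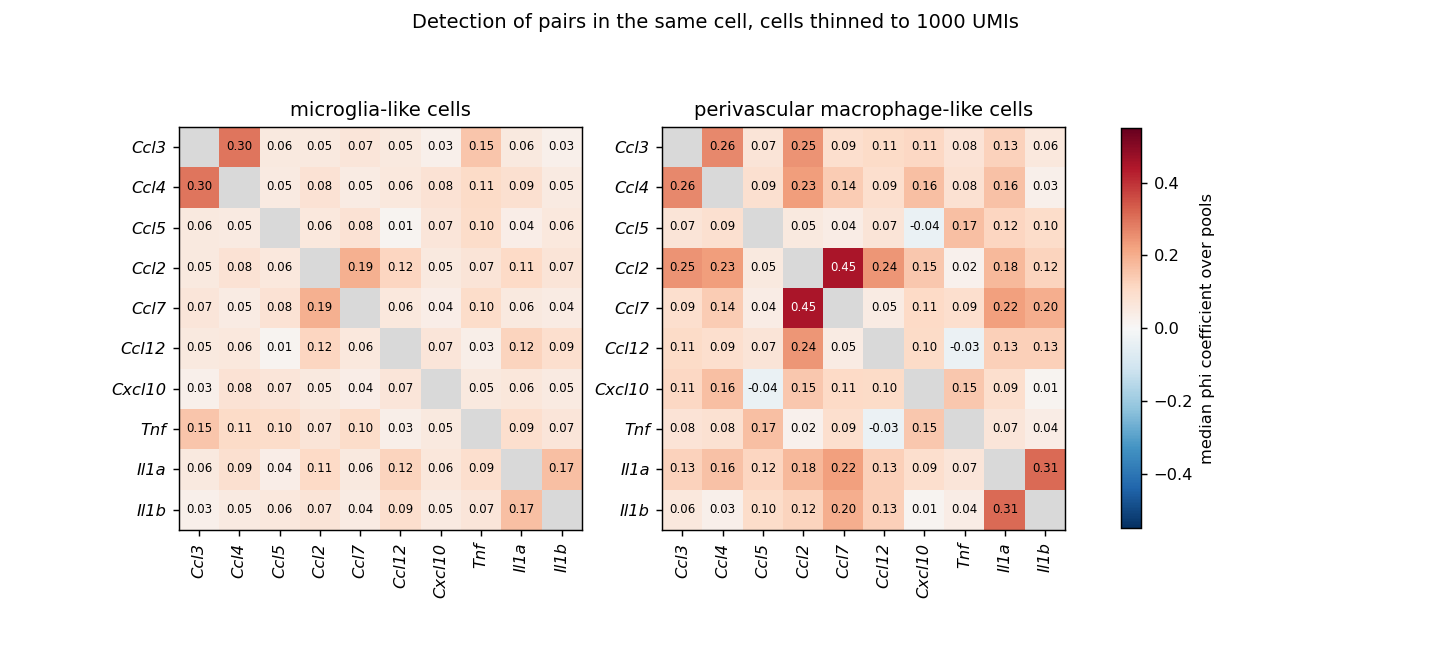
Median phi coefficient over pools for each pair of genes (colour scale and printed value, no unit) in microglia-like cells (left) and perivascular macrophage-like cells (right), all thinned to 1000 UMIs. The pairs Ccl3 with Ccl4, Ccl2 with Ccl7 and Il1a with Il1b stand out in both, at 0.30, 0.19 and 0.17 in microglia and 0.26, 0.45 and 0.31 in perivascular macrophages.

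Microglia of each region fell into 2 second-level clusters, clustered without the 10 genes. Cluster 0 was led by Tmem119, a homeostatic microglia marker, among others. Cluster 1 was led by genes such as Gdf15, a stress-induced growth factor gene, and the survival gene Bcl2a1a. Its 10 leading genes also held Tnf and Ccl5 in both regions, and Ccl3 in motor cortex. Since Tnf and Ccl3 were chosen as leading genes of a microglia cluster in these cells, their ratios are no independent result. Cluster 1 held between 20.3% and 63.9% of the microglia of a pool. As a description, the level in cluster 1 over that in cluster 0 had a median over pools of 23.7 for Ccl5, 2.94 for Ccl7, 2.82 for Tnf and 2.51 for Ccl3, each higher in cluster 1 in 12 of 12 pools. Ccl4 was higher in 11 pools with a median ratio of 1.44. Il1b (1.02), Ccl2 (0.975) and Cxcl10 (0.883) were each higher in cluster 1 in 6 of 12 pools. Il1a (0.753) and Ccl12 (0.680) were mostly higher in cluster 0, with cluster 1 ahead in 4 and 2 pools.

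Ccl5, a chemokine known from T and NK cells, was carried here mainly by microglia. They held 852 of 1110 Ccl5 UMIs in striatum (76.8%) and 2712 of 3438 in motor cortex (78.9%), and cluster 1 alone held 75.1% and 70.6% of all. One pool weighs heavily on the cortical shares, since 1792 of the 2712 microglial UMIs were from early replicate 2. Without that pool, a setting chosen after the data were seen, cortical microglia held 920 of 1438 Ccl5 UMIs (64.0%) and their cluster 1 48.7%. The carriers were few: 189 of 4843 striatal and 584 of 10034 cortical microglia had a Ccl5 UMI, of which 82 and 237 had exactly 1 and 26 and 80 had 10 or more, up to 57 and 41. Without early replicate 2, 328 of 8802 cortical microglia were carriers and 15 had 10 or more. In motor cortex the 64 T or NK cell-like cells held 11.3% of the Ccl5 UMIs (20.8% without that pool), with 28 carriers and 3302 CPM. In striatum an unnamed cluster of 85 cells led by Gzma, Ccl5, Ms4a4b, Nkg7 and Cd3d, genes of cytotoxic lymphocytes, held 14.5% with 13 carriers and 1051 CPM. Its best-scoring class was microglia, with 8 markers passing, while 7 of its 10 leading genes were T or NK cell markers. It was therefore left unnamed, and the type of its Ccl5 carriers was not tested. Perivascular macrophages held 6 Ccl5 UMIs in 4 cells of striatum and 149 in 16 cells of motor cortex, of which 91 were in 6 cells of late replicate 2. Fibroblast-like, ependymal-like and oligodendrocyte-like cells had none. Single cells in other clusters stood out, with 38 Ccl5 UMIs in 1 cell of a striatal astrocyte cluster and 48 in 1 endothelial-like cell of motor cortex. In neurons 17 of 28083 (0.0605%) and 42 of 22107 (0.190%) cells had a Ccl5 UMI.

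T or NK cell markers were rare in the microglial carriers. These markers also took part in naming the clusters, and the clusters led by them were set apart from microglia before this count. Their rarity in the remaining microglia was therefore fixed in part by the naming. Of the 12 T or NK cell markers, at least 1 UMI was seen in 2 of 189 striatal carriers (1.06%, against 1.24% of all striatal microglia) and in 15 of 584 cortical carriers (2.57%, against 1.97%). The summed level of those markers in microglia was at most 14.9 CPM in any pool. Of the 12, Cd3e, Trbc1, Gzma and Ncr1 had no UMI in the microglia of either region. Klrd1 had one in 1.18% of striatal and 0.648% of cortical microglia, and Trbc2 in 0.0207% and 1.27%, while 33.5% of cortical neurons also had a Trbc2 UMI. The other 6 were each in at most 0.0299% of microglia. Leaving out every microglial cell with such a UMI gave 760 Ccl5 CPM in motor cortex early replicate 2 and 194 and 223 CPM in the late striatal pools.

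By pool, microglial Ccl5 stood at 43.0, 50.9, 56.0, 51.8, 194 and 219.8 CPM in striatum and at 42.5, 48.2, 39.0, 784, 56.8 and 64.1 CPM in motor cortex. The late pools of striatum were both above all 4 other striatal pools, while in motor cortex only early replicate 2 stood high. In that pool 256 of 1232 microglia had a Ccl5 UMI (20.8%), against 30 of 540 and 52 of 767 in the late striatal pools. The level was high in both of its hemispheres, at 588 CPM contralateral and 1037 CPM ipsilateral. It was also high in cells of both mice, at 788 CPM in the 409 microglia with Xist UMIs alone and 828.5 CPM in the 272 with Y-linked UMIs alone, a split chosen after the data were seen. Every late striatal library lay between 127 and 307 CPM.

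Microglia with Ccl5 often had Cxcl10 as well, but not in all pools. In motor cortex early replicate 2, 126 of 212 thinned microglia with a Ccl5 UMI had a Cxcl10 UMI (59.4%), against 21.1% of those without Ccl5. In dorsal striatum late replicate 2 it was 19 of 42 (45.2%), against 12.7%. The share was higher in Ccl5 carriers in each of the 8 pools of kit class B. In the 4 class A pools the shares were 11.8% and 10.3%, 15.4% and 16.5%, 18.5% and 15.2%, and 12.0% and 11.4%, with carriers first. Over all pools the median phi of this pair was 0.065 (range -0.007 to 0.324). Tnf was detected more often in Ccl5 carriers in every pool, in 61.9% to 95.2% of them against 34.0% to 62.7% of other thinned microglia. The phi of Ccl5 and Tnf ranged from 0.059 to 0.261. Summed expression of 24 interferon-stimulated genes in microglia was 1334 CPM in motor cortex early replicate 2 and 463 to 771 CPM in the other 11 pools. The part of that in the Ccl5 level was not tested.

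**Figure D4:**
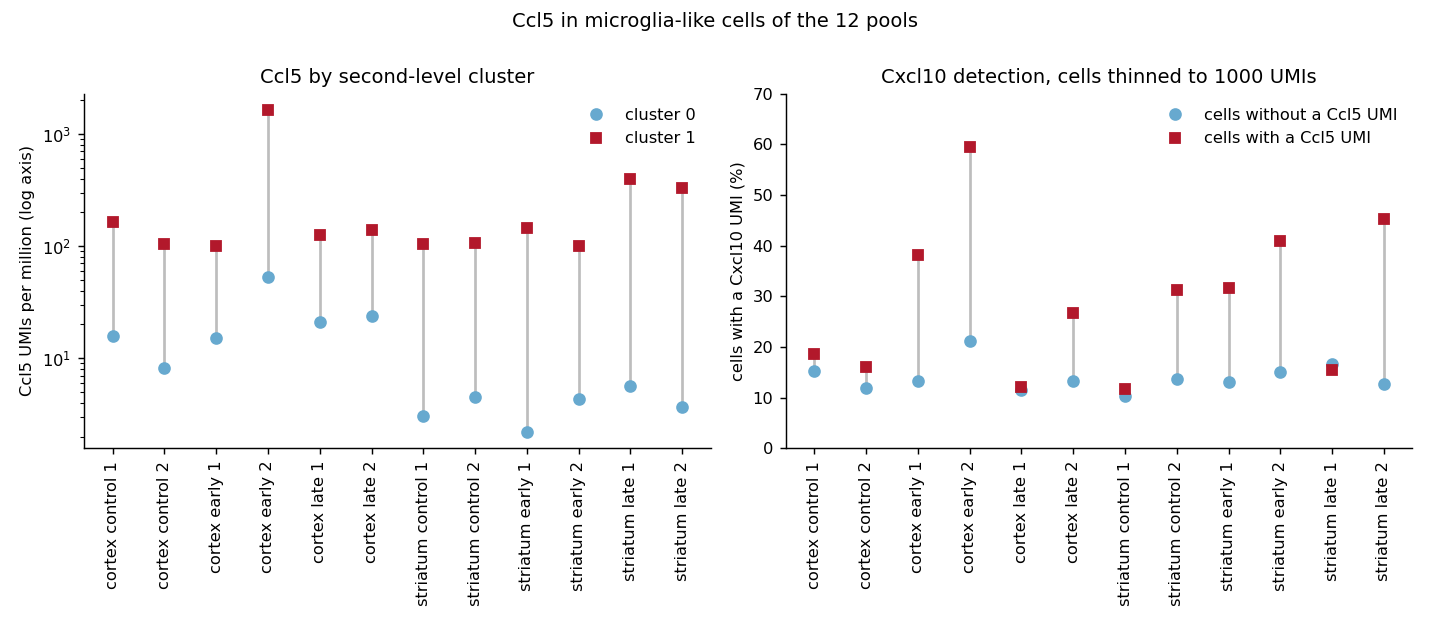
Left, Ccl5 level (CPM, log axis) in second-level microglia clusters 0 and 1 of each pool, and right, share of thinned microglia with a Cxcl10 UMI (%) among cells with and without a Ccl5 UMI. Cluster 1 lies above cluster 0 in 12 of 12 pools, and the Cxcl10 share reaches 59.4% in Ccl5 carriers of motor cortex early replicate 2.

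The genes whose detection pattern was most like that of 4 members were taken by the highest median correlation of log-transformed thinned UMIs over microglia, among 5138 genes other than the members. For Ccl3 they were Bcl2a1b (0.328), Fth1 (0.317), Gdf15 (0.285), Gadd45b (0.275) and Rcan1 (0.260). For Ccl5 they were the interferon-stimulated gene Isg15 (0.176, range -0.020 to 0.455), Bcl2a1b (0.139), the chemokine gene Cxcl2 (0.132), Bcl2a1a (0.112) and Bcl2a1d (0.110). For Cxcl10 they were Isg15 (0.135, range 0.051 to 0.405), the heat shock genes Hspa1a (0.077) and Hspa1b (0.071), Ccrl2 (0.069) and Peli1 (0.052). For Il1b they were Gpr84 (0.130), Cd14 (0.128), Cd83 (0.124), Bcl2a1b (0.103) and Nfkbia (0.096). Of 27 detected genes of the NF-kappaB pathway list, 13 had a median correlation above 0.1 with Ccl3, 13 with Tnf, 8 with Il1a, 7 with Ccl4, 3 with Ccl5, 3 with Il1b, 2 with Ccl12 and none with Ccl2, Ccl7 or Cxcl10. Of all 5138 genes, 2.43% were above 0.1 with Ccl3, 1.62% with Tnf, 0.448% with Ccl4 and 0.311% with Il1a, and at most 0.156% with any of the other 6. These are descriptions over 12 pools whose cells share depth. Ccl3 and Tnf were chosen as leading genes of a microglia cluster. Bcl2a1b and Bcl2a1d, which are in the NF-kappaB list, were among the leading genes of striatal cluster 1. The counts for Ccl3 and Tnf are therefore not independent of how these genes were chosen.

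None of the 10 members was called between regions in microglia by edgeR's quasi-likelihood test over 12 pools, with stage and kit class as covariates and Benjamini-Hochberg adjustment over all 9125 genes tested. In that comparison 126 genes (1.38%) were called at an adjusted p under 0.05. By DESeq2 0 members were called, and 3 members had an unadjusted p under 0.05 in edgeR, as did 915 of all 9125 genes. Ccl7 was higher in motor cortex by 0.94 on the log2 scale (SE 0.304, adjusted p = 0.218 by edgeR), with 5 of 6 cortical pools above 5 of 6 striatal pools. Il1b differed by 0.61 (SE 0.235, adjusted p = 0.357 by edgeR) and Ccl2 by -0.62 (SE 0.286, adjusted p = 0.481 by edgeR). Among the other genes of these pathways, 0 of 7 tested receptors and decoys, 0 of 29 NF-kappaB genes and 0 of 12 interferon-stimulated genes were called. Of 16 other chemokines and cytokines 1 was called, the eotaxin gene Ccl24, higher in motor cortex by 1.93 (SE 0.334, adjusted p = 0.00581 by edgeR). Ccl24 and Ccl7 were among the leading genes of the perivascular macrophage clusters of both regions. The macrophage marker Mrc1 had a UMI in 1.86% of striatal and 3.27% of cortical microglia-like cells. F13a1, Pf4, Lyve1, Cbr2, Ms4a7 and Clec4n were also detected more often in the cortical ones, each in at most 0.488% of them. Cd163, Stab1 and Maf went the other way, with Stab1 in 21.9% and 20.9% and Maf in 38.1% and 33.7%. The part of macrophage RNA or mixed cells in these differences was not tested. Of 26 immediate early and heat shock genes 2 were called, the transcription factor genes Fos at -1.10 (adjusted p = 0.0255 by edgeR) and Egr3 at -1.13 (adjusted p = 0.0429 by edgeR), both lower in motor cortex (list median -0.23 against 0 over all genes).
With a pool left out, Ccl7 ranged from 0.70 to 1.30, Il1b from 0.38 to 0.87 and Ccl2 from -0.81 to -0.23. Without dorsal striatum late replicate 1, Ccl7 was called at 1.30 (adjusted p = 0.00912 by edgeR), and under a stricter filter on cells at 1.11. Ccl5, at 0.26 over all pools, was at -0.99 without motor cortex early replicate 2, at -1.32 in the 4 class A pools alone and at 1.11 in the 8 class B pools. These Ccl5 values contain the late striatal pools by which the gene was chosen and are a description. Leaving out motor cortex control replicate 1 gave 0 called members. With the flow cell as a term in place of kit class, an alternative chosen after the data were seen, 0 members were called, with Il1b at 1.01 (SE 0.306, adjusted p = 0.438 by edgeR) and Ccl7 at 1.03 (SE 0.418, adjusted p = 0.682 by edgeR). That fit compares the regions only within the flow cells that held pools of both.

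Perivascular macrophages differed between regions in 3 of the 9 members tested, all higher in motor cortex. Of 1803 genes tested there, 68 (3.77%) were called by edgeR, 43 of them higher in motor cortex. Cxcl10 stood at 95.4, 347, 202, 352, 54.3 and 66.9 CPM in striatum and at 586, 1478, 752, 2090, 537 and 697.8 CPM in motor cortex. The regions did not overlap, and 26 of 248 striatal cells (10.5%) had a Cxcl10 UMI against 135 of 584 cortical cells (23.1%). The striatal levels rest on 101 Cxcl10 UMIs in all. Control replicate 1 had 6 of them, in 1 cell. Late replicates 1 and 2 had 5 in 3 cells and 8 in 6 cells. In motor cortex the top 1% of cells by Cxcl10 UMIs held 22.3% to 39.0% of a pool's Cxcl10 UMIs. The difference was 2.52 on the log2 scale (SE 0.286, adjusted p = 7.04e-06 by edgeR). It was 2.96 in class A pools alone and 2.48 in class B pools alone, and 2.25 to 2.77 when each pool was left out.
Ccl4 stood at 2624, 4424, 1538, 5450, 6773 and 2402 CPM in striatum and at 9269, 8950, 5537, 16770, 9098 and 9084 CPM in motor cortex, so that only cortical early replicate 1 fell among the striatal pools. It was higher by 1.33 (SE 0.305, adjusted p = 0.0137 by edgeR). Ccl3 stood at 4214, 3904, 2570, 4536, 5991 and 3807 CPM in striatum and at 8973, 8743, 6309, 9125, 8288 and 5754 CPM in motor cortex, with cortical late replicate 2 below the highest striatal pool. It was higher by 0.90 (SE 0.179, adjusted p = 0.00377 by edgeR). Within class A pools Ccl4 differed by 1.10 and Ccl3 by 0.77, and within class B pools by 1.59 and 1.02. All 3 were called without motor cortex control replicate 1. Without dorsal striatum late replicate 2, Ccl4 missed the threshold at 1.22 (adjusted p = 0.0506 by edgeR), while the other 11 fits with a pool left out called it.
Within the flow cells that held pools of both regions, all 3 genes were again higher in motor cortex. Cxcl10 stood at 352 CPM in striatum and 2090 CPM in motor cortex in early replicate 2, and at 66.9 and 697.8 CPM in late replicate 2. With the flow cell as a term in place of kit class, the region difference rests on these same flow cells, since each of the others held a single region. In that fit Cxcl10 differed by 2.85 (adjusted p = 0.000139 by edgeR) and Ccl4 by 1.77 (adjusted p = 0.0176 by edgeR). Ccl3, at 0.81 there, was not called (adjusted p = 0.183 by edgeR).

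The other 6 tested members did not pass in perivascular macrophages. Ccl2 ranged from 6092 to 14670 CPM in striatum (median 8867) and from 10890 to 14950 CPM in motor cortex (median 13050), a difference of 0.40 (SE 0.195, adjusted p = 0.324 by edgeR). Ccl7 ranged from 5500 to 24380 CPM (median 9010) and from 9856 to 22880 CPM (median 13960), a difference of 0.41 (adjusted p = 0.307 by edgeR). In both regions the class A late pool had the highest Ccl7 level. Ccl12, Tnf, Il1a and Il1b differed by -0.37, 0.61, -0.15 and 0.28, with adjusted p between 0.246 and 0.739 by edgeR. Ccl5 had too few UMIs to be tested.
Under a stricter filter on cells only Ccl3 was called, while Cxcl10 differed by 1.88 (adjusted p = 0.101 by edgeR) and Ccl4 by 1.10 (adjusted p = 0.237). DESeq2 called 2 of the 3 and left Ccl4 at an adjusted p of 0.0507, and Ccl4 was also not called without the kit covariate.

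**Figure D5:**
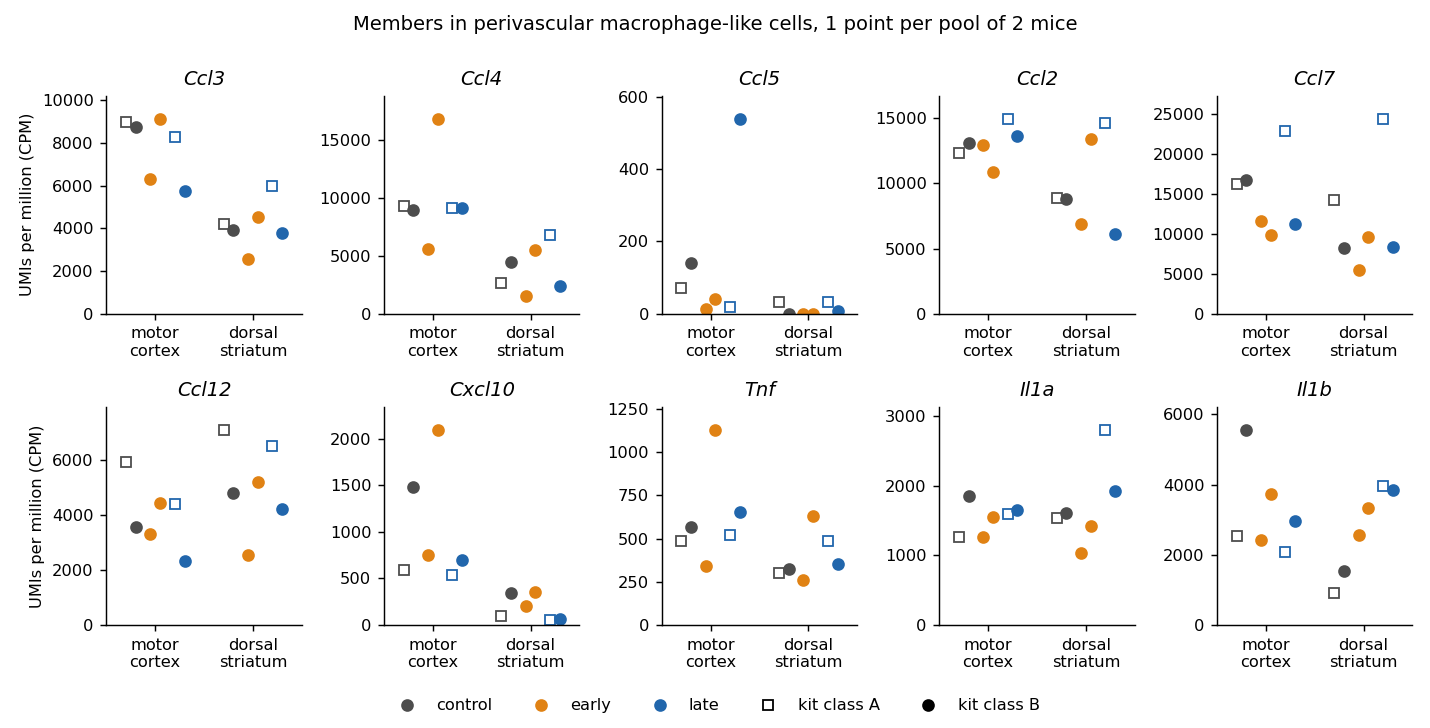
Level of each gene in perivascular macrophage-like cells (vertical axes, CPM, each from 0), with 1 point per pool of 2 mice coloured by stage and open squares for kit class A. For Cxcl10 the 6 motor cortex pools lie between 537 and 2090 CPM and the 6 striatal pools between 54.3 and 352 CPM, while the regions overlap in 1 pool for Ccl3 and Ccl4.

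Genes of related pathways in perivascular macrophages moved in both directions between regions. Of 9 interferon-stimulated genes tested 3 were called, all higher in motor cortex: Ifit1 by 6.28 (SE 0.615), Oasl1 by 4.12 (SE 0.537) and Isg15 by 1.91 (SE 0.320). The list's median was 0.25 against -0.03 over all genes. The UMIs behind these 3 sizes are not given here, and with 30 to 58 striatal cells per pool they may be few in striatum. Of 25 immediate early and heat shock genes 6 were called higher and 2 lower in motor cortex (median 0.17), among them Hspa1b, a stress-induced chaperone gene, at 1.46 and Fos at -1.82. Of 23 NF-kappaB genes 1 was called, Bcl2a1b at -1.09 (list median -0.04). The receptor gene Ccr1, which binds Ccl3, was higher by 0.90 (SE 0.216), 1 of 4 receptors tested. The chemokine gene Ccl8 was the 1 call among 8 other chemokines and cytokines, at -3.22 (SE 0.334). The microglia gene Siglech (-1.81) was lower in motor cortex. The summed level of 10 microglia markers was 1780 to 2694 CPM in striatal and 1608 to 2326 CPM in cortical perivascular macrophages, against 13050 or more in microglia, and their part in the member results was not tested.

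Between stages in motor cortex, 0 of the 10 members were called in microglia. Early against control, edgeR called 0 of 10082 genes (0%; 229 at an unadjusted p under 0.05), DESeq2 called 0, and 3 members had an unadjusted p under 0.05. Ccl5 differed by 3.29 (SE 1.19), Cxcl10 by 1.20 (SE 0.494) and Ccl12 by 0.77 (SE 0.327), each with an adjusted p of 0.999 by edgeR. With a pool left out, Ccl5 ranged from -0.26 (without early replicate 2) to 4.24, Cxcl10 from 0.19 to 1.79 and Ccl12 from 0.31 to 1.13. Late against control, 0 genes were called (0%; 304 unadjusted; DESeq2 0), and Ccl2 at -0.62 (SE 0.236) and Ccl12 at -0.70 (SE 0.288) had an unadjusted p under 0.05 (adjusted p = 1 by edgeR). With a pool left out Ccl2 ranged from -0.85 to -0.37 and Ccl12 from -0.79 to -0.58. Both late pools lay below both control pools in 6 members (Ccl2, Ccl7, Ccl12, Cxcl10, Il1a and Il1b), where 13.2% of all genes did so, and above them in 1, Ccl5, where 6.45% did so. Late against early, 0 genes were called (0%; 205 unadjusted; DESeq2 0), and 5 members had an unadjusted p under 0.05, led by Ccl12 at -1.47 (SE 0.328). Both late pools lay below both early pools in 3 members (11.6% of all genes). Stage comparisons of a region share pools and left 2 residual degrees of freedom. Within the flow cell they share, late replicate 1 lay below control replicate 1 in 7 of the 10 members, where 57.3% of all 10082 genes did so, with Ccl2 at 357 and 723 CPM and Ccl12 at 576 and 1121 CPM. Early replicate 1 lay below control replicate 2 of its flow cell in 7 members, where 51.5% of all genes did so, among them Tnf at 829.2 and 1661 CPM. Early replicate 2 and late replicate 2 shared no flow cell with another stage of their region, so their levels and those of the flow cell cannot be told apart in a stage comparison.

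Between stages in striatum, early against control gave 0 called genes of 9517 (0%; 317 unadjusted; DESeq2 0), and none of the 9 members other than Ccl5 had an unadjusted p under 0.05. Ccl5, at 0.03, is a description here, since the control pools took part in its choice. Ccl7 was nearest, at 0.72 (SE 0.344, adjusted p = 1.00 by edgeR). Late against control is the contrast by which Ccl5 was chosen and is given as a description: Ccl5 differed by 2.19 (2.16 to 2.19 when each pool was left out), Ccl7 by 0.79, Cxcl10 by 0.71, Tnf by 0.66 and Ccl4 by 0.53. With each pool left out, Ccl7 ranged from -0.12 to 1.72, Cxcl10 from 0.19 to 1.27, Tnf from 0.42 to 0.86, Ccl4 from -0.04 to 1.09 and Ccl2, at -0.28 over all pools, from -1.64 to 1.09. Late against early, 3 of 9517 genes (0.0315%) were called by edgeR. Ccl5 differed by 2.16 (2.12 to 2.20 with each pool left out), a description with no test, since both late pools, at 194 and 219.8 CPM, are those by which it was chosen. Of the other 9 members none was called, by edgeR or DESeq2, and none had an unadjusted p under 0.05 in edgeR, where 733 of all 9517 genes did. Ccl4 at 0.70 (SE 0.453, adjusted p = 0.758 by edgeR) was the largest of them. Within the flow cell they share, late replicate 1 lay above control replicate 1, which rests on 1 library, in all 9 members other than Ccl5, where 46.1% of all 9517 genes did so, with Ccl4 at 16270 and 7734 CPM and Ccl2 at 1257 and 595 CPM. Early replicate 1 lay below control replicate 2 of its flow cell in 8 of those 9, all but Ccl7, where 36.8% of all genes did so. Pools of a stage differed in kit class among control and late pools only.

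Hemispheres of trained mice were compared within the 8 trained pools, contralateral against ipsilateral to the reaching limb, with the pool as a block. No member was called among 7291 genes, of which 1 (0.0137%) was, the heat shock gene Hspa1b at -0.51. DESeq2 called 0 members, and 2 members had an unadjusted p under 0.05 in edgeR, as did 294 of all 7291 genes. Ccl2 was higher contralaterally in 7 of 8 pools, by 0.30 on the log2 scale (SE 0.0688, adjusted p = 0.296 by edgeR, and 0.000687 without the filter on low counts). In striatum the contralateral and ipsilateral Ccl2 levels were 564 and 501, 1231 and 1104, 1346 and 1036, and 476 and 269 CPM, and in motor cortex 872 and 580, 864 and 680, 371 and 348, and 458 and 484 CPM. Ccl7 differed by 0.22 (SE 0.0946, adjusted p = 1 by edgeR), and under the stricter filter on cells it was called, at 0.95 (adjusted p = 8.05e-07 by edgeR). The other 8 members differed by between -0.17 and 0.07.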

How the data were processed

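The deposited values are UMI counts for each gene in each cell. The submitters' processing notes name Cell Ranger 3.1.0 and GRCm38 (mm10), and per the file headers the software version was 3.0.2. Kits of version 2 or 3 were used, per the labels, without saying which per library; the kit classes used as a covariate were inferred from shared barcodes. Matrices were read for 23 of 24 libraries, with 5260446 to 30470621 UMIs each; depth limits genes with few UMIs, such as Ccl5. The genes and gene lists were chosen with earlier results of these data known.

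Cells under 500 genes or 1000 UMIs, or over 20% mitochondrial UMIs, were dropped, and the top 0.8% per 1000 barcodes by Scrublet score (scanpy 1.11.5, 5103 cells) were removed as doublets. Each region was clustered on 2000 variable genes, 40 principal components and 20 neighbours (Leiden, resolution 1.5, leidenalg 0.10.2), and immune clusters again at 0.2. A cluster of at least 30 cells took the class of which at least 3 markers were detected in 20% of its cells at 2 times the level elsewhere.

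UMIs were summed per pool and class, and hemispheres per library. edgeR 4.0.16 (R 4.3.3; TMM, filterByExpr, quasi-likelihood F test) was run over all genes, with Benjamini-Hochberg adjustment and calls under 0.05. Replicate numbers were given in accession order and pair no pools; the pool is a block only where its 2 hemispheres are compared. The labels give a flow cell as batch, shared by pools of different number. Within a region, stage and flow cell together left no residual degrees of freedom. Adjusted p-values rest on the spread between pools of 2 mice. In the hemisphere comparison they rest on the spread of the hemisphere difference over the trained pools. All 10 members are named whatever their values, up to 4 called genes per list by smallest adjusted p, and the 5 genes most like each of 4 members. For coexpression, cells were thinned to 1000 UMIs. Promoter windows come from RefSeq. Results were recomputed with DESeq2 1.42.0, with RLE factors, without the filter on low counts, with stricter cells (1000 genes, 2000 UMIs, 10% mitochondrial), with wider doublet removal (1.6%), no kit covariate, no replicate block, thinning to 2000 UMIs and each pool left out; fits within a kit class, the flow cell as a term in the region comparisons, levels within a flow cell, Ccl5 carriers without 1 pool and the split by sex-linked UMIs were added after the data were seen. Some results that involve withheld items are not reported here.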

Additional observations from a re-analysis of the deposited data

Results flagged for a closer look

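Single pools stood apart from the other 5 of their region in 4 of 40 gene and class combinations examined. A rate of about 1 in 20 by chance would need independent combinations. Genes measured in the same pools are not independent, so no excess is read from this count. Motor cortex early replicate 2 did so in microglia for Ccl5 (784 CPM, the next pool at 64.1), Cxcl10 (1189 CPM, the next at 437) and Il1b (1532 CPM, the next at 940). Dorsal striatum late replicate 1 did so for Ccl7 in microglia (235 CPM, the next at 102). Both pools hold 2 libraries that were each high for these genes.

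For Cxcl10 in microglia, late against control, the regions went in opposite directions with no overlap between late and control pools in either region. Such a pattern was flagged in 1 of 30 contrasts compared, and its share over all genes is not given here. In motor cortex alone, 13.2% of all genes had both late pools below both control pools. The log2 ratio of mean CPM was -0.28 in motor cortex and 0.59 in dorsal striatum. In motor cortex the late pools stood at 249.7 and 342.5 CPM and the control pools at 343.6 and 374.7 CPM, so the nearest pools almost met. In dorsal striatum the late pools stood at 443.8 and 429.0 CPM and the control pools at 185.9 and 394.5 CPM. The difference between the regions was not tested. Signs alone also differed in other contrasts, such as Ccl7, late against control, with log2 changes of -0.88 in motor cortex and 0.79 in dorsal striatum, where its pools overlapped.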

How the results depend on the processing

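The number of members called depended on the filter on low counts, the cell filter and single pools. Without the filter on low counts, members called in microglia were 3 between regions, 1 between hemispheres, 1 in motor cortex between early and control and 3 between late and early, and 8 between regions in perivascular macrophages. Under the stricter cell filter they were 1, Ccl7, between regions (1.11) and 1, also Ccl7, between hemispheres (0.95), and 1 in perivascular macrophages. Without the kit covariate 0 were called for late against early in striatum, where the counts include Ccl5, chosen on those late pools. In kit class A alone, chosen after seeing the data, 2 were called between regions in microglia, with Ccl5 at -1.32, and without motor cortex early replicate 2 Ccl5 was at -0.99, both against the direction over all pools and both containing the late striatal pools on which Ccl5 was chosen; with each other pool left out Ccl5 ranged up to 0.81. Leaving out each pool gave 0 to 1 called between regions in microglia, 0 to 5 between early and control and 0 to 6 between late and early in motor cortex (the highest without early replicate 1), 0 to 1 between early and control in striatum (without control replicate 2) and 1 to 4 between late and early there (without early replicate 2). In these stage fits the arm left with 1 pool is assumed to vary like the other groups. The counts for late against early in striatum again include Ccl5, so they are no test of that gene. In perivascular macrophages 2 to 4 were called between regions with a pool left out, the fewest without dorsal striatum late replicate 2 (Ccl4 lost) and the most without motor cortex early replicate 1. With the flow cell as a term there Ccl3 was not called. The pool as a block changed no call between hemispheres: with no replicate block 0 members were called. Of 116 such counts computed, 100 stayed within 1.5 times. The share of all genes called under each of these settings is not given here, so the counts of members cannot be set against it. Of the log2 changes of single members, 1098 kept their side of the threshold, 32 gained a call, 7 lost one and 2 turned direction with a call; called or not, the sign changed in 93 of 1139, 63 of them with a pool left out. The cause of these shifts was not tested. With 2 pools per region and stage, Ccl5 and Ccl7 rest on few cells, and differences smaller than the spread between pools were not detectable.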
